A study of Mus musculus with 14 samples.

Results

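Genes of fatty acid and triglyceride metabolism were followed in mouse mammary gland across 10 hormone treatments. The set was a named list of 34 genes of lipogenesis, desaturation, triglyceride assembly and lipolysis. It was chosen by function and not by a cut on measured values, but with earlier results of these data known. A gene counted as measured where the array had a probe set annotated with that gene symbol alone, and the brightest such probe set over all arrays stood for the gene. Of the 34 members 32 were measured, out of 18193 genes named on the array, and Acsl1 and Plin1 were not analysed here. None of the 32 was dim, that is below the 40 percentile of mean level over all probe sets (6.65 on the log2 scale). Most were very bright: their median percentile of mean level was 99.2 and the lowest was 75.8. Shares and medians over all genes are thus not a background matched for level.

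All groups were female C57BL/6 mice, 11 to 12 weeks old on arrival, acclimatized for 1 week and ovariectomized 7 days before treatment, so every group, the vehicle group included, lacked its ovaries. Glands were taken 3 h after vehicle, 17-beta-estradiol (E2), acolbifene, tamoxifen, raloxifene or fulvestrant, or after E2 given together with each of these 4 blockers of estrogen receptors. Fulvestrant is a steroid, and tamoxifen, raloxifene and acolbifene are nonsteroidal modulators. The 14 arrays comprise pairs for the vehicle, E2, acolbifene and E2+acolbifene groups and single arrays for the other 6. Each group was a pool of the glands of 8 mice, and nothing in the labels tells whether paired arrays come from 1 pool or from separate ones. The spread behind each p-value is thus that between arrays and may be technical. Doses of the blockers are not stated in the sources used here.

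Fat cells fill most of the mouse mammary gland, and they make fatty acids from acetyl-CoA, lengthen and desaturate them, and store them as triglyceride in droplets. The transcription factors Srebf1 (SREBP-1) and Mlxipl (ChREBP, a sensor of glucose metabolites) switch on lipogenic genes, and Pparg directs the program of fat cells. Lipoprotein lipase and CD36 bring fatty acids in from blood, and the lipases Pnpla2, Lipe and Mgll release them from stored triglyceride.

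Promoters are shown for Acss2, Fads2 and Mlxipl, members that were lower after E2 and have an entry in the RefSeq promoter table of build GRCm38.p6. Of the 34 members 27 had an entry, in 41 windows from 250 bases before to 50 after a start. The sequences run 5′ to 3′ on the gene's strand over the 250 bases before an annotated start, and capitals mark matches to the motifs searched. These are chr2:155517793-155518042 (plus strand) for Acss2, chr19:10101504-10101753 (minus strand) for Fads2, and chr5:135089640-135089889 and chr5:135106641-135106890 (plus strand) for the 2 starts of Mlxipl that hold a match.
Acss2: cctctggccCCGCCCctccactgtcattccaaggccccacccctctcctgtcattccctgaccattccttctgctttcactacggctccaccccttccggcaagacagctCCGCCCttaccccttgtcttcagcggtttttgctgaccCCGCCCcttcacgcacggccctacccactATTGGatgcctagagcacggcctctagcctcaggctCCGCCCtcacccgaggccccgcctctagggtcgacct
Fads2: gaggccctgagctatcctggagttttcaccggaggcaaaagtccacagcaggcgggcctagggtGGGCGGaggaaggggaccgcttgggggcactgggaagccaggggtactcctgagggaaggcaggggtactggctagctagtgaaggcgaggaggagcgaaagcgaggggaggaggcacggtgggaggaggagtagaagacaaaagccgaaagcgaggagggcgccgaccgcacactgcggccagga
Mlxipl, first start: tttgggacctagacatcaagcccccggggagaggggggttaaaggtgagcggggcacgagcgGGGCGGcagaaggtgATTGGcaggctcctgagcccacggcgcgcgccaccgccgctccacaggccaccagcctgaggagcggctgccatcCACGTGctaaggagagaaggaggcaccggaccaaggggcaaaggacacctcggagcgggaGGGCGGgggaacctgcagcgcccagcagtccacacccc
Mlxipl, second start: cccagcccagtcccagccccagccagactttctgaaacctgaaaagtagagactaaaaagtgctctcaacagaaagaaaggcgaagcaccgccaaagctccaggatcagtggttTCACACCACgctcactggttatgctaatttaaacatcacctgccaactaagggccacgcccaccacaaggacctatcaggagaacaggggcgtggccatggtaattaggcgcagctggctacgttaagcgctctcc
Acss2 holds a CCAAT box (CCAAT, here as ATTGG on the other strand) and GC boxes (GGGCGG or CCGCCC), and Fads2 a GC box. The first Mlxipl start holds an E-box (CACGTG, the core that ChREBP and other basic helix-loop-helix factors bind), a CCAAT box and GC boxes, and the second holds TCACACCAC, a match to the sterol regulatory element (searched as TCAC, any base, CCAC). On both strands, the sterol regulatory element was found in 2 of the 41 member windows (4.88%) and 1.24% of all 32851 promoter windows. These 2 windows belong to Mlxipl and to Acsl1, a member not analysed here. The E-box was found in 14.6% of the member windows and 7.15% of all, the CCAAT box in 46.3% and 37.4%, and the GC box in 58.5% and 35.7%. The estrogen response element (GGTCA, any 3 bases, TGACC) was found in 0 member windows and 0.07% of all. These are matches of letters and not measured binding.

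The medians of the arrays were close (7.16 to 7.23, log2), but the upper range differed: the 99 percentile of all probe sets ran from 12.22 on the E2+tamoxifen array to 12.50 on acolbifene array 1. Values after another quantile normalization of the deposited levels are given where it moved a result. A code of unstated meaning stands in the raw-file names, R136 for E2 array 1 and the 6 single arrays and R137 for the rest. Hybridization spikes read 9.86 to 10.04 on the E2 and single arrays, and 10.23 to 10.41 elsewhere. The 3′ minus 5′ signal of Actb, a measure of RNA quality, was 0.41 and 0.43 on the E2 arrays and 0.32 to 0.41 on the single arrays, against 0.28 and 0.24 in vehicle and 0.25 to 0.31 after acolbifene and E2+acolbifene. Technical differences along that split cannot be told apart from the treatments it separates, E2 against vehicle among them. Between the 2 arrays of a group the members differed by a median of 0.06 in vehicle, 0.11 in E2, 0.05 in acolbifene and 0.07 in E2+acolbifene (log2), and by at most 0.34, for Agpat1 in E2.

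Markers of the cell types of the gland were present. Of 12 adipocyte markers outside the set 10 were measured and none was dim, as for 8 of 10 luminal, 9 of 9 endothelial and 10 of 10 macrophage markers, and 1 of 10 basal and smooth muscle markers was dim (Krt17). The summed level of the adipocyte markers was 15.87 to 15.91 in vehicle, 15.74 to 15.87 after E2, 15.96 to 16.00 after acolbifene, 15.79 to 15.85 after E2+acolbifene and 15.69 to 15.87 on the other 6 arrays (log2). Their median difference from vehicle was -0.18 and -0.07 on the E2 arrays, 0.06 and 0.02 after acolbifene and -0.09 and -0.12 after E2+acolbifene. It was -0.25 with fulvestrant, -0.22 with raloxifene and -0.06 with tamoxifen, and -0.10, -0.16 and -0.24 with E2 added to these. The 18 skeletal muscle markers, of which Myh2 was dim, varied far more, with a median difference from vehicle of -1.47 to 0.75 over all arrays. It was -0.71 on the first E2 array and 0.53 on the second. After acolbifene it was -0.02 and -0.06, and after E2+acolbifene 0.72 and 0.67. Macrophage markers lay at -0.20 and -0.21 from vehicle on the E2 arrays, 0.27 and 0.25 after acolbifene, and -0.16 and -0.19 after E2+acolbifene (summed level 14.67 to 14.71 in vehicle and 14.41 to 14.96 elsewhere). The 11 lymphocyte markers measured, of 13 and none dim, lay at -0.16 and -0.17 after E2 and -0.31 and -0.35 after E2+acolbifene (summed level 14.51 to 14.52 in vehicle and 14.03 to 14.42 elsewhere). Basal and smooth muscle markers lay at 0.32 and 0.29 after E2, and from 0.03 to 0.31 on the other treated arrays (summed level 13.11 to 13.15 in vehicle and 13.20 to 13.42 elsewhere). The part of these markers and of the Actb measure in the results was not tested. In pooled tissue, fewer cells of a type and less RNA per cell cannot be told apart.

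**Figure D1:**
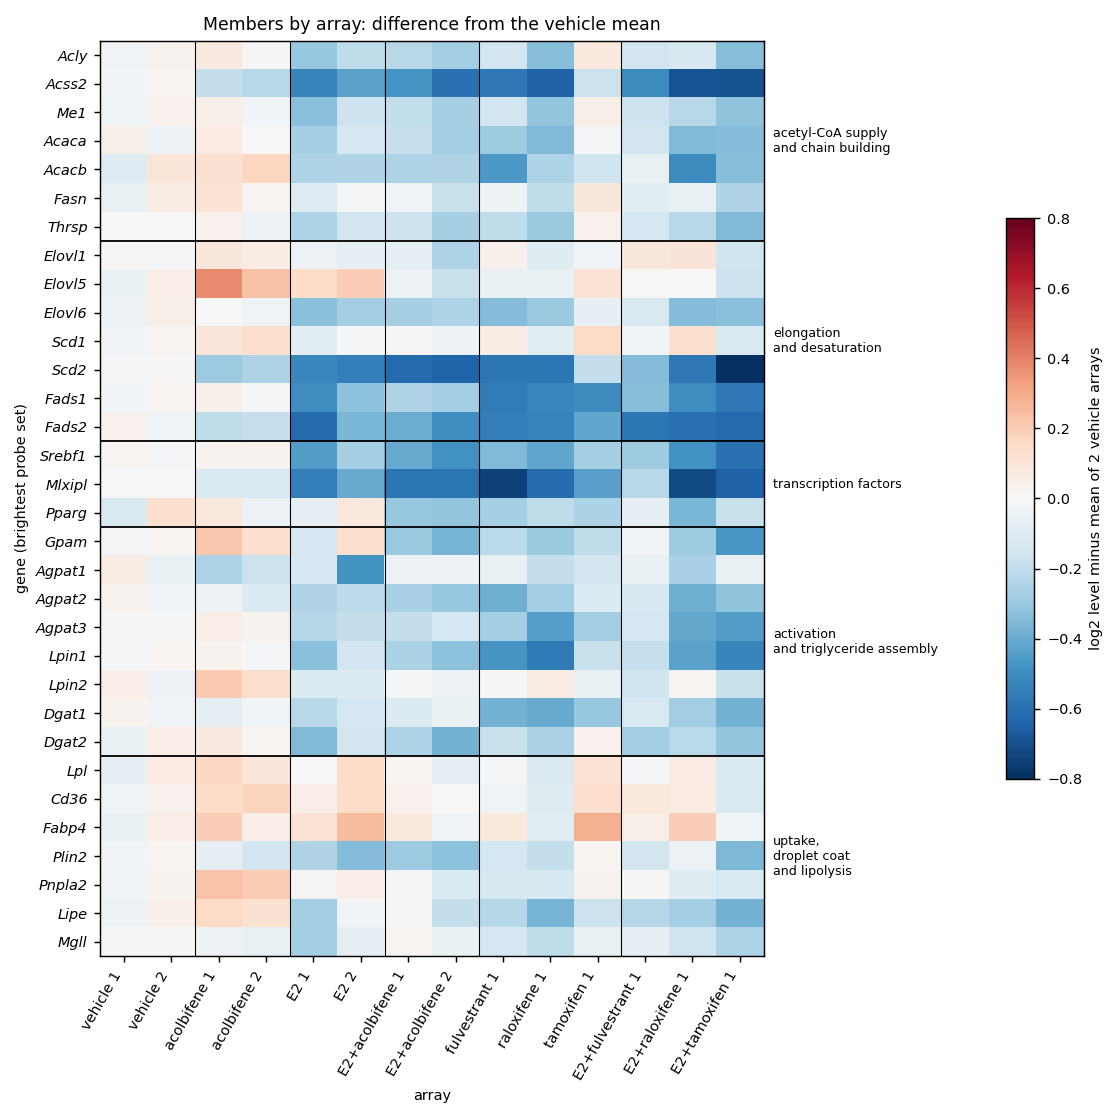
Difference of each of the 32 measured members from the mean of the 2 vehicle arrays (log2, colour) on each of the 14 arrays, with genes in rows by role. Scd2, Acss2, Mlxipl and Fads2 are blue on all 12 arrays other than vehicle, whereas most rows of uptake and lipolysis genes are paler.

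The comparison of E2 with vehicle asked how estradiol moved these genes within 3 h. Of the 32 members 5 were lower after E2 and 0 higher: Scd2, Fads2, Mlxipl, Acss2 and Fads1, by 1.33- to 1.45-fold (limma, Benjamini-Hochberg adjusted p under 0.05 over all probe sets, 2 arrays per group). Over all 18193 genes, 1.6% were called lower and 2.35% higher. The median change of the members was -0.21, against -0.02 for all genes, with or without dim probe sets. A negative change was found in 26 of the 32 members and in 55.8% of all genes. In 18 members it came with an unadjusted p under 0.05. For that unadjusted threshold no share of all genes was computed, here or in later comparisons. Such counts thus stand without a background.

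Scd2, a stearoyl-CoA desaturase that makes monounsaturated fatty acids, read 12.67 and 12.69 in vehicle and 12.16 and 12.13 after E2 (log2 levels). The groups did not overlap, and the change was -0.53 ± 0.08 (SE, limma adjusted p = 0.00551). Its other 2 probe sets changed by -0.75 (adjusted p = 0.000782) and -1.001 (adjusted p = 0.000526). Scd1, the main desaturase of fat cells, changed by -0.05 ± 0.09 (adjusted p = 0.782) with 14.12 and 14.16 in vehicle and 14.05 and 14.13 after E2. Only Scd2 of these 2 desaturases passed the test, and the difference between them was not tested. Scd1 stood at the 100.0 percentile of mean level over all probe sets, as did Fasn and Fabp4, described below. Whether levels so near the top of the scale can show a change was not tested.

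Fads1 and Fads2, the delta-5 and delta-6 desaturases of polyunsaturated fatty acid synthesis, were both lower after E2. Fads2 read 9.72 and 9.65 in vehicle and 9.07 and 9.32 after E2, a change of -0.50 ± 0.10 (adjusted p = 0.022). Fads1 read 10.83 and 10.87 in vehicle and 10.35 and 10.52 after E2, a change of -0.41 ± 0.09 (adjusted p = 0.0305). For both genes all vehicle arrays lay above all E2 arrays. Dimmer probe sets of these genes did not pass the test, with -0.29 and 0.09 for Fads2 and -0.05 for Fads1. Among the elongases, Elovl6, which extends palmitate, changed by -0.30 ± 0.09 (adjusted p = 0.0754), while its 2 dimmer probe sets fell by 0.47 (adjusted p = 0.0131) and 0.88 (adjusted p = 0.00762). Elovl1, which extends very long saturated chains, changed by -0.06, and Elovl5, which extends polyunsaturated chains, by 0.17 (adjusted p = 0.36).

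Mlxipl read 11.84 and 11.85 in vehicle and 11.29 and 11.44 after E2, a change of -0.48 ± 0.09 (adjusted p = 0.0136). Srebf1 read 11.65 and 11.62 in vehicle and 11.19 and 11.37 after E2. Its change of -0.36 ± 0.09 missed the threshold (adjusted p = 0.0559) and passed it after another quantile normalization (-0.35, adjusted p = 0.0456). Both E2 arrays lay below both vehicle arrays for these 2 factors. Pparg gave 10.64 and 10.89 in vehicle and 10.70 and 10.85 after E2, overlapping ranges with a change of 0.01 ± 0.11 (adjusted p = 0.978).

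Acss2, which makes acetyl-CoA from acetate, read 12.86 and 12.90 in vehicle and 12.35 and 12.45 after E2, without overlap. Its change was -0.48 ± 0.09 (adjusted p = 0.015). A dimmer probe set of Acss2 changed by -0.995 (adjusted p = 0.000164) and the third by -0.305 (adjusted p = 0.09). The other 6 genes of acetyl-CoA supply and chain building ranged from -0.26 for Acly, the ATP-citrate lyase, to -0.05 for Fasn, the fatty acid synthase, and none passed the test. Between them lay the malic enzyme Me1 (-0.25), the acetyl-CoA carboxylases Acacb (-0.25) and Acaca (-0.20) and the lipogenic regulator Thrsp (-0.19). One further probe set of Acly (-0.36, adjusted p = 0.0491) and the dimmer one of Acaca (-0.66, adjusted p = 0.0402) did pass. Another bright Acly probe set changed by -0.065 (adjusted p = 0.735), and the dim ones of Acly, from -0.223 to 0.145, did not pass.

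Triglyceride assembly runs from glycerol-3-phosphate through Gpam, the Agpat acyltransferases, the lipin phosphatases and the Dgat enzymes that add the last chain. None of its 8 measured members passed the test after E2. Their median change was -0.22, from -0.31 for Agpat1 to -0.005 for Gpam. Dgat2, the brightest of them, read 13.44 and 13.55 in vehicle and 13.14 and 13.35 after E2, a change of -0.25 ± 0.10 (adjusted p = 0.195). A dimmer probe set of Agpat1 (-0.49, adjusted p = 0.0307) and one of Dgat1 (-0.53, adjusted p = 0.0284) were lower.

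None of the 7 measured genes of uptake, droplet coat and lipolysis passed either, and their median change was 0.04. Fabp4, the fatty acid binding protein of fat cells and the brightest of them, read 13.82 and 13.93 in vehicle and 13.99 and 14.13 after E2. Its change of 0.18 ± 0.10 was the most positive of all 32 members and did not pass the test (adjusted p = 0.331). Lipoprotein lipase (Lpl) changed by 0.07, Cd36 by 0.10, the triglyceride lipase Pnpla2 by 0.04, hormone-sensitive lipase (Lipe) by -0.14, monoglyceride lipase (Mgll) by -0.17 and the droplet coat gene Plin2 by -0.30 (adjusted p = 0.0843). The difference between this role and the others was not tested. The 46 other probe sets of members gave 9 lower and 0 higher calls in this comparison. Of all 45037 probe sets, 1685 were called in either direction.

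The 5 calls, except that of Scd2, depended on single arrays. With E2 array 1 left out, which leaves E2 array 2 and vehicle on the same raw-file code R137, only Scd2 remained called (-0.55, adjusted p = 0.0427), and the members' median was -0.15. Likewise only Scd2 remained called without vehicle array 1 (-0.54, adjusted p = 0.0465) or vehicle array 2 (-0.53, adjusted p = 0.0403). Fads2 then ranged from -0.53 to -0.37, Mlxipl from -0.49 to -0.41, Acss2 from -0.50 to -0.43 and Fads1 from -0.44 to -0.33 over these 3 settings. Without E2 array 2 the same 5 members were called, and after another quantile normalization these 5 and Srebf1.

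**Figure D2:**
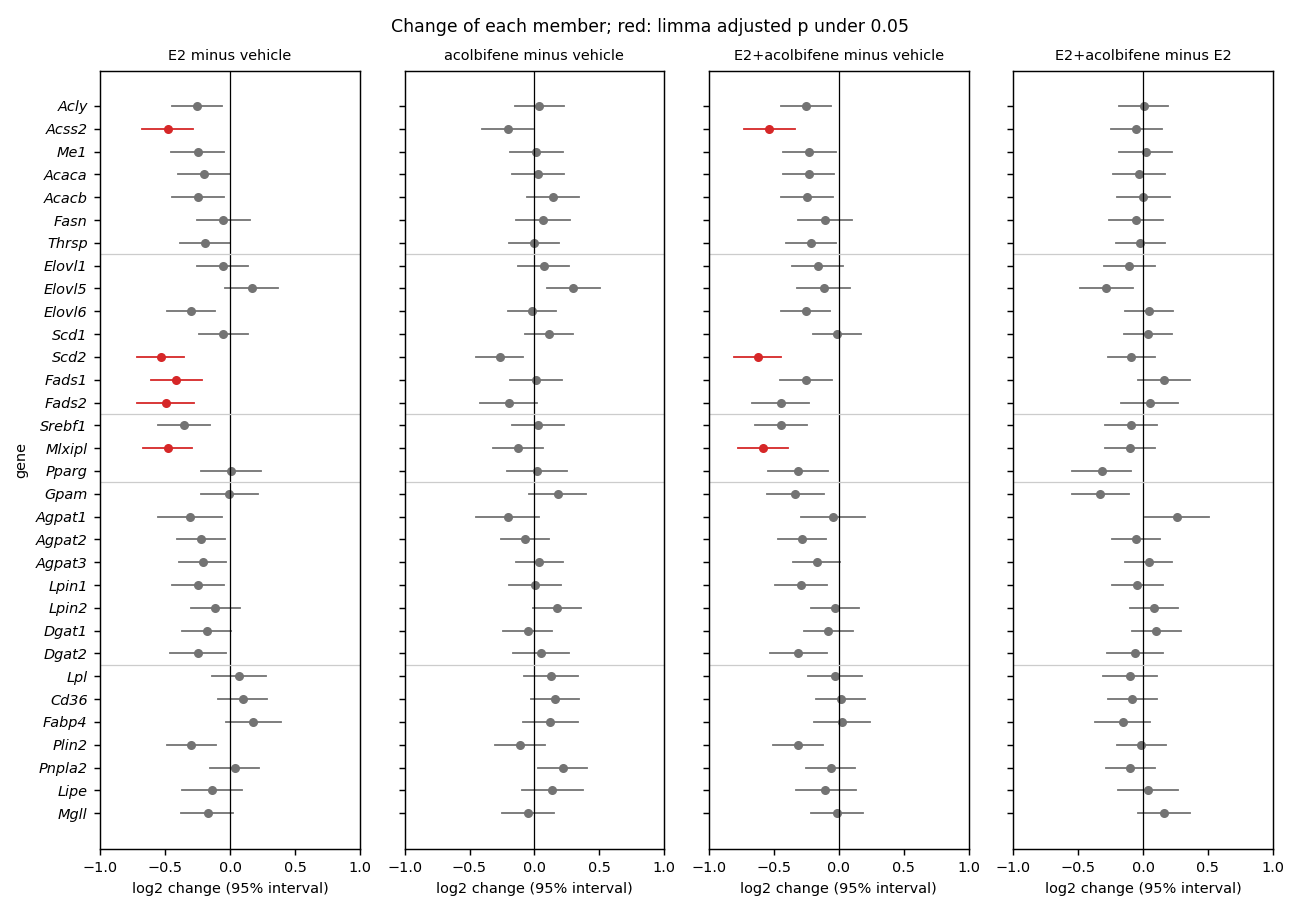
Log2 change of each member with its 95% interval in 4 comparisons of groups with 2 arrays each, genes in rows by role and red where the limma adjusted p was under 0.05. The 5 red points after E2 and the 3 after E2+acolbifene against vehicle all lie left of 0, and the acolbifene and E2+acolbifene minus E2 panels hold no red point.

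Acolbifene alone against vehicle asked what the blocker did without added estradiol. No member passed the test (limma), and 4 had an unadjusted p under 0.05. Over all genes 0.242% were called lower and 0.544% higher. The members' median was 0.03, equal to that of all genes, and -0.04 after another quantile normalization. The split of all called genes also moved with that scaling, from 99 higher and 44 lower to 70 higher and 53 lower. Of the members with a small unadjusted p, Scd2 read 12.39 and 12.43 and Acss2 12.69 and 12.66, both below vehicle. The Scd2 change was -0.27 ± 0.08 (adjusted p = 0.161) and that of Acss2 -0.205 ± 0.09 (adjusted p = 0.292). Elovl5 read 12.50 and 12.36 against 12.07 and 12.18 in vehicle, a change of 0.30 ± 0.09 (adjusted p = 0.165). Pnpla2 read 13.16 and 13.13 against 12.90 and 12.96, a change of 0.22 ± 0.09 (adjusted p = 0.249).

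E2+acolbifene against vehicle asked which changes were present with the hormone and the blocker together. Scd2, Mlxipl and Acss2 were lower and 0 members were higher, while 0.495% of all genes were called lower and 0.599% higher. Scd2 read 12.06 and 12.04, a change of -0.63 ± 0.08 (adjusted p = 0.00711). Mlxipl read 11.26 on both arrays, a change of -0.58 ± 0.09 (adjusted p = 0.0141). Acss2 read 12.41 and 12.28, a change of -0.53 ± 0.09 (adjusted p = 0.0238). All 3 lay below both vehicle arrays on both E2+acolbifene arrays. Srebf1 (11.23 and 11.15) changed by -0.45 ± 0.09 and just missed the threshold (adjusted p = 0.0511), and Fads2 (9.29 and 9.19) changed by -0.45 ± 0.10 (adjusted p = 0.0667). The members' median was -0.23 against -0.02 for all genes, and -0.06 for all genes without dim probe sets. Of the 32 changes 30 were negative, as were 54.8% of those of all genes.

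After another quantile normalization the same 3 members were called, at -0.50 for Scd2, -0.45 for Mlxipl and -0.41 for Acss2, and the members' median was -0.12 with 22 negative changes. These calls were lost with vehicle array 1, vehicle array 2, E2+acolbifene array 1 or E2+acolbifene array 2 left out. Each leave-out leaves a single array in a group, and calls over all genes fell as well. The members' median was then -0.25 to -0.19. The comparison shares its vehicle arrays with the E2 comparison.

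E2+acolbifene against E2 asked what the blocker changed in the presence of estradiol. None of the 32 members passed the test (limma), and 4 had an unadjusted p under 0.05. Of the 46 other probe sets of members, 1 was called higher and 0 lower, while 1649 of all 45037 probe sets were called in either direction. Over all genes 2.12% were called lower and 1.62% higher. The members' median was -0.04, and 0.04 after another quantile normalization, under which the split of all called genes moved from 294 higher and 386 lower to 119 and 264. Scd2 differed by -0.09 (95% interval -0.27 to 0.09), Mlxipl by -0.10 (-0.29 to 0.09), Acss2 by -0.05 (-0.25 to 0.14), Fads2 by 0.05 (-0.17 to 0.27) and Fads1 by 0.16 (-0.04 to 0.36). These intervals all include 0, and they also hold differences as large as -0.29 (Mlxipl) and 0.36 (Fads1). Gpam, the mitochondrial enzyme of the first acylation step, read 11.21 and 11.47 after E2 and 11.05 and 10.97 after E2+acolbifene. Its change was -0.33 ± 0.10 (adjusted p = 0.0863). Pparg changed by -0.32 ± 0.11 (adjusted p = 0.0995) and Elovl5 by -0.28 ± 0.09 (adjusted p = 0.104). Agpat1 differed the other way, at 0.26 ± 0.11 (adjusted p = 0.177).

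E2+acolbifene against acolbifene asked what estradiol changed in the presence of the blocker. Here 8 members were lower and 0 higher, against 7.82% of all genes called lower and 3.77% higher. They were Gpam (-0.51), Srebf1 (-0.48), Mlxipl (-0.46), Elovl5 (-0.42), Acacb (-0.39), Dgat2 (-0.36), Scd2 (-0.36) and Acss2 (-0.33), with limma adjusted p from 0.0191 to 0.0461. After another quantile normalization 0 of the 8 passed, the members' median moved from -0.24 to -0.09, and all called genes went from 686 higher and 1423 lower to 351 higher and 191 lower. These calls were also lost with any 1 of the 4 arrays left out, which leaves a single array in a group. Calls over all genes fell as well, and the members' median was then -0.29 to -0.21. The median change of all genes was -0.04 in the deposited values, and -0.11 without dim probe sets. Acolbifene array 1 had the highest 99 percentile of all arrays (12.50) and the E2+acolbifene arrays some of the lowest (12.32 and 12.27). Gpam read 11.56 and 11.48 after acolbifene and 11.05 and 10.97 after E2+acolbifene, and its change after another quantile normalization was -0.32 (adjusted p = 0.0716). Acacb, the carboxylase that regulates fatty acid oxidation, read 11.67 and 11.72 after acolbifene and 11.30 and 11.31 after E2+acolbifene. Its change after another quantile normalization was -0.20 (adjusted p = 0.234). The dimmer Acacb probe set went the other way, by 0.256 (adjusted p = 0.16). With the mean of its probe sets the Acacb call was lost. Dgat2 read 13.57 and 13.52 against 13.25 and 13.12, and Srebf1 11.66 on both arrays against 11.23 and 11.15. For each of these genes the 2 groups did not overlap in the deposited values.

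The difference of the acolbifene effects, with E2 minus without E2, tested whether the blocker moved a gene differently in the presence of estradiol. Elovl5 was the only member called, against 3.54% of all genes called lower and 1.58% called higher. Acolbifene changed Elovl5 by 0.30 without E2 and by -0.28 with E2, so that the highest levels lay on the acolbifene arrays (12.50 and 12.36) whereas those of E2+acolbifene (12.08 and 11.95) reached no higher than 12.08, against 12.07 and 12.18 in vehicle. The difference was -0.58 ± 0.13 (adjusted p = 0.0376). It was -0.43 after another quantile normalization (adjusted p = 0.0773), where the call was lost. Of the leave-outs only the one without acolbifene array 2 kept it (-0.65, adjusted p = 0.0442), and the others gave adjusted p from 0.0557 to 0.13. The other Elovl5 probe set gave -0.45 (adjusted p = 0.0687). Gpam came next at -0.51 ± 0.14 (adjusted p = 0.0646).

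**Figure D3:**
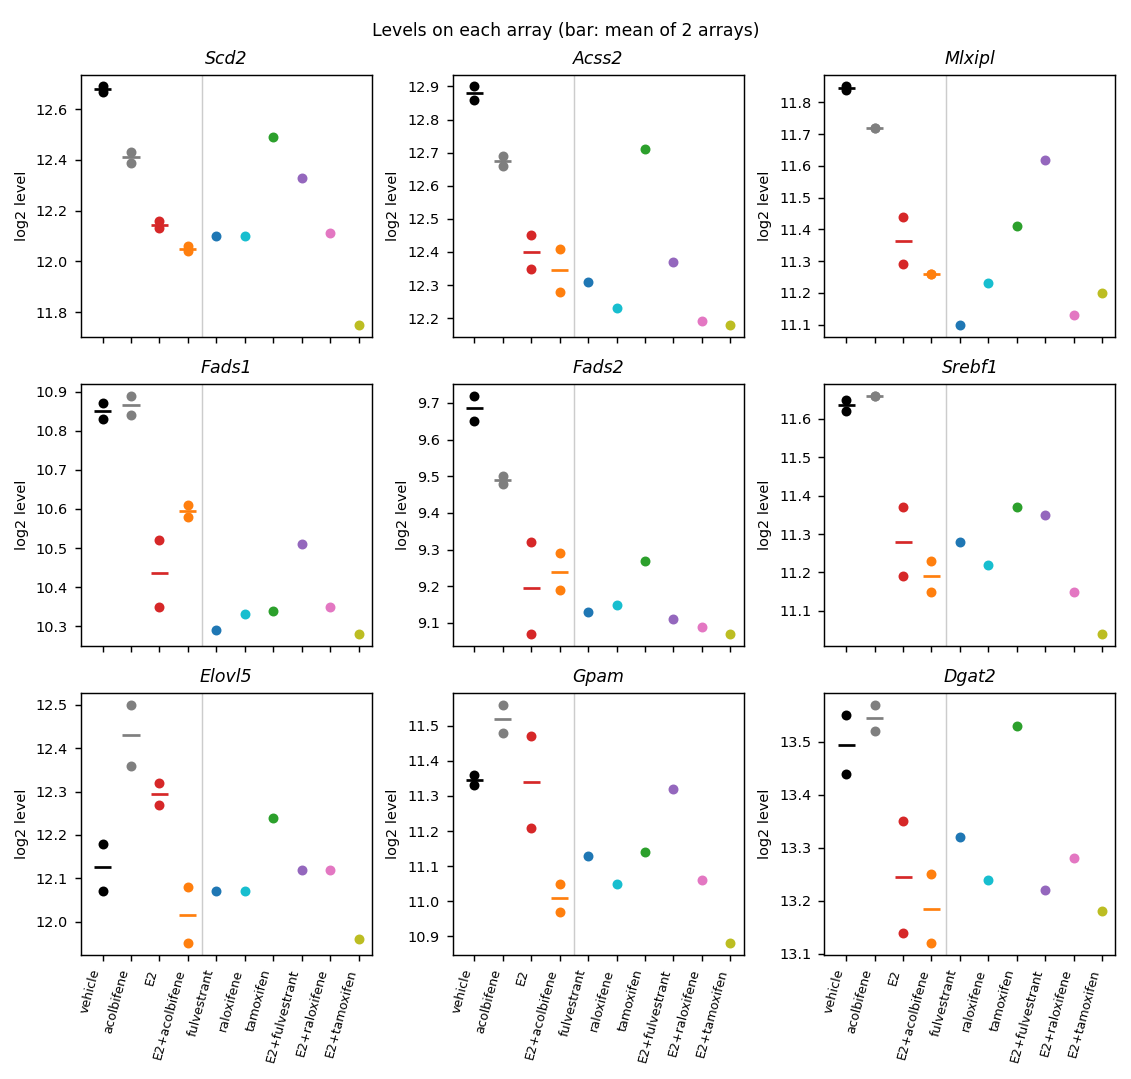
Log2 level of 9 members on every array, each point an array and each bar the mean of 2 arrays, groups on the horizontal axis and a separate vertical scale in each panel. For Scd2, Acss2, Mlxipl and Fads2 the 2 vehicle arrays lie above all other arrays, whereas for Elovl5 the acolbifene arrays are highest.

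Fulvestrant, raloxifene and tamoxifen, alone and with E2, had 1 array each, so their tests borrowed the spread of the replicated groups and carried the raw-file code as a term. Vehicle is then reached only through the E2 group, the one group with both codes. In none of the 15 comparisons with these arrays did a member pass the test. The background was as low: 0.247% of all genes were called for fulvestrant, 0.0055% for raloxifene and 0.0165% for tamoxifen against vehicle. For E2+fulvestrant, E2+raloxifene and E2+tamoxifen against E2 it was 0.011%, 0.121% and 0.0055%, and against the same blocker without E2 it was 0.599%, 0.0715% and 0.181%. Members with an unadjusted p under 0.05 numbered 7, 6 and 2 for the blockers against vehicle, 1, 0 and 3 against E2, and 3, 0 and 13 against the blocker alone, in the same order.

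On the fulvestrant array Scd2 read 12.10, Mlxipl 11.10 and Acss2 12.31, each below both vehicle arrays. The raloxifene array gave 12.10, 11.23 and 12.23 for the same genes. The tamoxifen array gave 12.49, 11.41 and 12.71, also below both vehicle arrays but above the fulvestrant and raloxifene arrays for all 3 genes. Adipocyte markers stood in the same order, at -0.06 on the tamoxifen, -0.25 on the fulvestrant and -0.22 on the raloxifene array, and their part was not tested. Without the raw-file code in the fit, Scd2 and Mlxipl were called lower for fulvestrant and Acss2 for raloxifene. That fit called 0.445% of all genes for fulvestrant and 0.253% for raloxifene. With the code the fulvestrant changes were -0.61 for Scd2 and -0.60 for Mlxipl, and the raloxifene change of Acss2 was -0.55. The code and these treatments can be separated only through the 2 E2 arrays.

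With E2 added, the E2+tamoxifen array held the lowest Scd2 of all arrays (11.75), against 12.33 with E2+fulvestrant and 12.11 with E2+raloxifene. Scd2 changed by -0.74 ± 0.12 between tamoxifen and E2+tamoxifen and did not pass the test (95% interval -1.004 to -0.48, adjusted p = 0.0588), and without the raw-file code it did. The E2+tamoxifen array also had the lowest 99 percentile of all arrays (12.22), and the median of the members for this comparison moved from -0.26 to -0.06 after another quantile normalization. Mlxipl was higher on the E2+fulvestrant array (11.62) than on the fulvestrant array (11.10), a change of 0.52 ± 0.12 (adjusted p = 0.167). Acss2 read 12.37, 12.19 and 12.18 with E2 and fulvestrant, raloxifene and tamoxifen.

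Between the blockers, 6 pairs were tested, 3 without and 3 with E2, at doses not given in the sources used here. No member was called in any pair, also with p-values adjusted over all pairs. Over all genes, 0.055% were called for fulvestrant against raloxifene, 0.077% for fulvestrant against tamoxifen and 0.0% for raloxifene against tamoxifen. With E2, the shares were 0.132% for fulvestrant against raloxifene, 0.055% for fulvestrant against tamoxifen and 0.187% for raloxifene against tamoxifen. With E2, Scd2 was widest apart for fulvestrant minus tamoxifen (0.58, 95% interval 0.32 to 0.84) and for raloxifene minus tamoxifen (0.36, 0.09 to 0.62), and Mlxipl for fulvestrant minus raloxifene (0.49, 0.23 to 0.75). Without E2, Acss2 was widest apart for raloxifene minus tamoxifen (-0.48, -0.76 to -0.20) and fulvestrant minus tamoxifen (-0.40, -0.68 to -0.12), and Acacb for fulvestrant minus raloxifene (-0.22, -0.52 to 0.08). After another quantile normalization Scd2 in E2+raloxifene minus E2+tamoxifen was 0.17, and the members' median of that pair turned from 0.10 to -0.07. That scaling gave Acss2 -0.32 for raloxifene minus tamoxifen, and the members' median of that pair went from -0.19 to -0.05. The median also turned for fulvestrant minus raloxifene, from 0.06 to -0.03, and went from 0.19 to 0.07 for E2+fulvestrant minus E2+tamoxifen. The smallest p adjusted over all pairs was 0.327, for Scd2 in E2+fulvestrant minus E2+tamoxifen. Members with an unadjusted p under 0.05 numbered 0, 7 and 8 without E2 and 3, 6 and 2 with E2, in the order of the shares above. With 1 array per group, these values do not show that the blockers act alike.

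Setting vehicle against the other 12 arrays, 5 members lay below both vehicle arrays on every one of them: Acss2, Scd2, Fads2, Mlxipl and Agpat2, an acyltransferase of triglyceride assembly whose margin was 0.01. Of all genes 4.3% did so. No member lay above both vehicle arrays on all 12, and 2.46% of all genes did. After another quantile normalization 9 of the 32 members (28.1%) lay below on all 12 arrays, against 4.09% of all genes. The closest array was tamoxifen for Scd2 (12.49) and Acss2 (12.71) and acolbifene for Fads2 (9.50) and Mlxipl (11.72). This comparison rests on the same 2 vehicle arrays throughout and is a description without a test.

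By role, the medians of the transcription factors were -0.44 and -0.27 from vehicle on the E2 arrays and -0.60 on the E2+tamoxifen array. After another quantile normalization they were -0.40 and -0.30 on the E2 arrays, -0.39 on the E2+tamoxifen array and -0.43 on the E2+raloxifene array, so that E2+tamoxifen no longer stood lowest. Elongation and desaturation genes lay at -0.33 and -0.27 on the E2 arrays, chain building genes at -0.26 and -0.16, assembly genes at -0.23 and -0.15, and uptake and lipolysis genes at -0.01 and 0.06. With that normalization these roles lay at -0.25 and -0.24, -0.19 and -0.18, -0.16 and -0.18, and 0.06 and 0.09. The order of the roles was not tested. Over all 32 members the median difference from vehicle was 0.05 and 0.00 on the acolbifene arrays and -0.34 on the E2+tamoxifen array. After another quantile normalization it was -0.03 on both acolbifene arrays, -0.16 on both E2 arrays, -0.12 and -0.10 on the E2+acolbifene arrays, and -0.25 to -0.05 on the other 6.

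**Figure D4:**
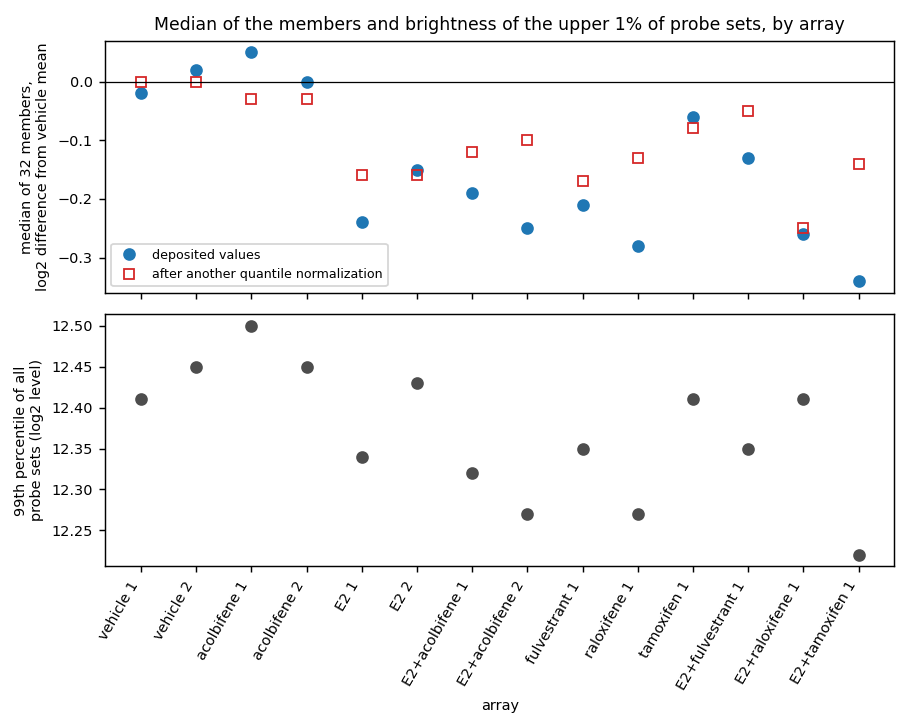
Upper panel, median log2 difference of the 32 members from the vehicle mean on each array, as deposited (filled) and after another quantile normalization (open). Lower panel, the 99 percentile of all probe sets on each array: the E2+tamoxifen array is lowest in both panels as deposited (-0.34 and 12.22), and acolbifene array 1 is highest (0.05 and 12.50).

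Of 59 other genes of the pathway 57 were measured. After E2, 4 were higher and 3 lower, with a median of -0.08. Plin5, a droplet coat protein that ties droplets to mitochondria, read 8.48 and 8.41 in vehicle and 9.57 and 9.34 after E2, a change of 1.01 ± 0.10 (adjusted p = 0.000357). Pck1, the enzyme that makes glycerol-3-phosphate for triglyceride in fat cells, rose by 0.60 (adjusted p = 0.0039), the adipogenic factor Cebpb by 0.41 (adjusted p = 0.0307) and the droplet coat gene Plin4 by 0.41 (adjusted p = 0.0391). Mid1ip1, a partner of Thrsp that activates acetyl-CoA carboxylase, read 10.98 and 11.02 in vehicle and 10.24 and 10.36 after E2. It fell by 0.70 (adjusted p = 0.00191), the acetoacetyl-CoA synthetase gene Aacs by 0.47 (adjusted p = 0.0164) and the droplet coat gene Plin3 by 0.38 (adjusted p = 0.043). The droplet coat genes called here thus moved in opposite directions, Plin4 and Plin5 upward and Plin3 downward.

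Plin5, Pck1 and Mid1ip1 kept their calls for E2 under the 9 alternatives that were distinct fits. Plin3 and Plin4 each lost theirs with any of the 4 arrays left out, Cebpb likewise, and Aacs without E2 array 1, E2 array 2 or vehicle array 1. Acolbifene alone called 0 of the 57, and E2+acolbifene minus E2 called Plin5 (-0.60, adjusted p = 0.0175) and Cebpb (-0.40, adjusted p = 0.0404) lower. That Cebpb call was lost in 6 of 9 distinct alternatives, namely another quantile normalization (-0.28), the replicate block and each array left out. The Plin5 call was lost without E2 array 1 or either E2+acolbifene array, and its change ranged from -0.71 to -0.48. Mid1ip1 (-0.83, adjusted p = 0.0026), the acyl-CoA synthetase gene Acsl3 (-0.61, adjusted p = 0.0416) and Aacs (-0.48, adjusted p = 0.0373) were lower in E2+acolbifene than in vehicle. Mid1ip1 kept this call in all 10 distinct alternatives, from -0.89 to -0.71. The Acsl3 and Aacs calls were lost with any 1 of the 4 arrays left out, Aacs also after another quantile normalization and Acsl3 under the replicate block, with ranges of -0.74 to -0.35 for Acsl3 and -0.54 to -0.29 for Aacs. Against acolbifene, 8 of the 57 were lower in E2+acolbifene, of which Mid1ip1 (-0.77, adjusted p = 0.00401) was the one still called after another quantile normalization. With fulvestrant, E2 gave a Plin5 level of 9.78 against 8.46 without E2, a change of 1.32 ± 0.13 (adjusted p = 0.00331) from 1 array each. On these 2 arrays the brown adipocyte markers (9 of 10 measured, Zic1 dim) lay at 0.32 and -0.21 from vehicle, with summed levels of 14.21 and 13.72. The keratinocyte and sebaceous gland markers (8 of 10 measured, Flg and Far2 dim) lay at 0.86 and -0.08, with summed levels of 10.81 and 10.01. Their part in the Plin5 change was not tested. Brown adipocyte markers lay at -0.02 and -0.42 on the E2 arrays, where Plin5 read 9.57 and 9.34.

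**Figure D5:**
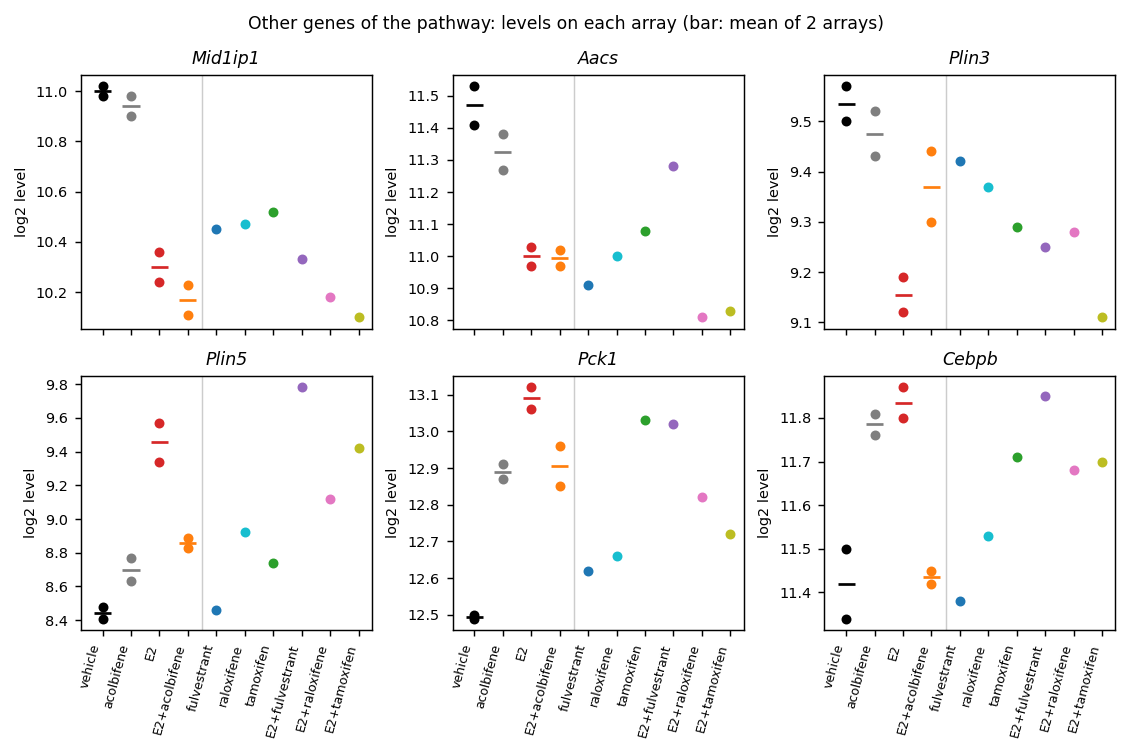
Log2 level of 6 other genes of the pathway on every array, each point an array and each bar the mean of 2 arrays, with a separate vertical scale in each panel. Mid1ip1, Aacs and Plin3 are lower on both E2 arrays than on both vehicle arrays, and Plin5, Pck1 and Cebpb are higher.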

How the data were processed

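Expression was measured on 14 Affymetrix arrays of pooled mouse mammary gland, each from 20 ug of total RNA. The authors deposited log2 expression levels, and the submitters' processing notes name RMA without a version. RMA compresses weak signals. The series text names U74Av2 arrays, but the table and its platform annotation are those of another, larger Affymetrix mouse array with 45101 probe sets (34945 probe sets with 1 symbol, 932 with several, 9160 unnamed). Without 64 control probe sets, 45037 were fitted.

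Each comparison was a two-sided contrast in limma (version 3.58.1, R 4.3.3; linear model with empirical Bayes), called at a Benjamini-Hochberg adjusted p under 0.05 over the 45037 probe sets. The 6 comparisons among the 4 replicated groups used their 8 arrays and no other term. The 15 with an unreplicated array used the full 14 and a term for the raw-file code, each such array assumed to vary like the replicated groups. Changes are differences of log2 levels with standard errors. The fits were tested on simulated data.

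The members, the lists of other genes and markers, and the tests were chosen with earlier results of these data known. All members could be named. Values on every array are given for called members and for the brightest member of a role without one, other genes of the pathway are named where called (at most 6 per comparison), and other values were named after being seen. Alternatives were a term for the raw-file code, a replicate block, an intensity trend, removal of dim probe sets, another quantile normalization, the mean of all probe sets of a gene, all 14 arrays, and each replicate left out. Having so few arrays limits the precision. No E2 dose is given, since the unit in the labels is doubtful.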

Additional observations from a re-analysis of the deposited data

Results flagged for a closer look

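Acolbifene's effect in the presence of E2, minus its effect in the absence of E2, passed limma's test for 1 member (3.12% of the 32), 3 other genes of the pathway and 1 further probe set of a member. Over all genes 5.12% passed, so the share of the members was not above that of all genes. Of all 45037 probe sets, 2011 passed. Elovl5 gave -0.58 (adjusted p = 0.0376) and kept its call in 4 of 13 distinct alternatives. Plin5 gave -0.85 (adjusted p = 0.0152), with acolbifene changing it by -0.60 in the presence of E2, and kept its call in 10 of 13. Cebpb gave -0.76 (adjusted p = 0.0151) and kept its call in 9 of 13. Pck1 gave -0.58 (adjusted p = 0.0303) and kept it in 6 of 13. The dimmest of the 3 Scd2 probe sets gave 0.60 (adjusted p = 0.0476) and kept its call in 4 of 12, while the brightest gave 0.18 (adjusted p = 0.366).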

How the results depend on the processing

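No called member changed direction under any alternative run. For E2 minus vehicle, Scd2 alone kept its call with a raw-file code term. With an intensity trend 14 members were called, without dim probe sets 8, and with the mean of all probe sets of a gene 10. The share of all genes called rose too, from 3.95% to 6.84%, 7.74% and 5.03% with these 3 settings. Another quantile normalization called 6 members and 4.17% of all genes. Fads1 and Fads2 lost their calls with that mean of probe sets, and Scd2, Acss2 and Mlxipl kept theirs. For E2+acolbifene minus vehicle the counts were 14 with the trend, 5 without dim probe sets and 6 with the mean of probe sets. All genes then gave 5.33%, 2.64% and 2.59%, against 1.09%. For E2+acolbifene minus acolbifene, 22 were called with the trend, 13 without dim probe sets and 0 after another quantile normalization. All genes then gave 21.7%, 23.3% and 2.98%, against 11.6%. In these 2 comparisons each leave-out, which leaves a single array in a group, lost the calls of members. Leave-outs also lowered the calls over all genes in each of the 6 comparisons among the replicated groups. Comparing the acolbifene effects with and without E2, 2 were called with the code (Gpam lower, Agpat1 higher), 3 with the trend and 2 without dim probe sets (all genes 11.8% and 11.5%, against 5.12%), 0 after another quantile normalization, and 0 to 2 in the leave-outs. The trend called 3 members each for acolbifene minus vehicle and E2+acolbifene minus E2 (all genes 4.41% and 7.76%, against 0.786% and 3.74%). The fit of all 14 arrays repeats the one of 8, and for comparisons with E2 the code term equals leaving out E2 array 1; such repeats are not counted as distinct alternatives.

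The replicate block called 5 members for E2 minus vehicle, 3 for E2+acolbifene minus vehicle, 6 for E2+acolbifene minus acolbifene and 0 comparing the acolbifene effects. In the same order it called 3.2%, 0.753%, 6.29% and 2.96% of all genes. Deviations of same-numbered arrays correlated at -0.12 to 0.12, so the numbers were not treated as pairs. Over all genes, calls for E2 minus vehicle went from 719 to 256 with the code, and for E2+acolbifene minus E2 from 680 to 116; another quantile normalization took the latter to 383, E2+acolbifene minus acolbifene from 2109 to 542 and the comparison of acolbifene effects from 931 to 474, and the replicate block took the last 2 to 1144 and 538 and E2+acolbifene minus E2 to 406. The recomputation of other genes of the pathway and of the dimmest Scd2 probe set was added after seeing the data.

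Among comparisons with an unreplicated array, the trend called 3 members for fulvestrant and 2 for raloxifene against vehicle, 1 for E2+tamoxifen minus E2, 2 for E2+fulvestrant minus fulvestrant, 13 for E2+tamoxifen minus tamoxifen, 2 for fulvestrant and 4 for raloxifene minus tamoxifen, and with E2 2 for fulvestrant minus raloxifene, 3 for fulvestrant minus tamoxifen and 3 for raloxifene minus tamoxifen. Calls over all genes in these comparisons numbered 28 to 575 with the trend, against 0 to 109. Omitting the code called 2 for fulvestrant and 1 for raloxifene against vehicle (0.445% and 0.253% of all genes). It called 1 for E2+tamoxifen minus tamoxifen (0.17% of all genes). That comparison also gave 1 without dim probe sets (0.428%) and 1 with the mean of probe sets (0.198%). E2+fulvestrant minus fulvestrant gave 1 with that mean (0.786%). E2 arrays were not left out there, since the code could then not be fitted. Apart from the settings with fewer arrays, fewer probe sets or another variance model, the cause of these differences was not tested.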
